A study of Mus musculus with 12 samples.

Results

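PYHIN proteins, also called the p200 or HIN-200 family, are interferon-inducible nucleic acid sensors. The members described here are Ifi203, Ifi204, Ifi205, Mnda, Mndal, Pyhin1 and Aim2. They were chosen by name, as rows of the deposited count table, and all 7 were found among its 19434 genes. RNA was counted in 12 libraries of CD4+ T cells, lymphocytes that help other immune cells, isolated from mouse lungs by magnetic enrichment and flow sorting. The mice were C57BL/6NJ, of both sexes, and carried no genetic alteration that the labels name. Neonates were treated on day 5 of life and juveniles on day 15. Each age received either 2800000 colony-forming units of the bacterium Escherichia coli or phosphate-buffered saline (PBS) by aspiration, and lungs were taken 48 hours later. This gave 4 groups (PBS and E. coli at each age) of 3 libraries each, numbered 1 to 3. Every neonatal library was a pool of 3 mice and every juvenile library a pool of 2 mice, so no library shows a single animal.

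As background, most PYHIN proteins join an N-terminal pyrin domain, which binds other pyrin domains, to a C-terminal HIN domain, which binds DNA without regard to its sequence. Aim2 senses double-stranded DNA in the cytosol and recruits the adaptor ASC (Pycard) and caspase-1 into an inflammasome, which matures interleukin-1β and interleukin-18. Ifi204 is regarded as a functional counterpart of human IFI16 and signals through STING (Tmem173) to type I interferon. Many of these genes are themselves switched on by interferons through STAT and IRF factors. The family is best known in macrophages and dendritic cells.

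All 7 genes lie in 1 cluster on mouse chromosome 1. In GRCm38 coordinates (GENCODE M21), Aim2 spans chr1:173350879-173466040 and Pyhin1 spans chr1:173630917-173647928, both on the plus strand. Ifi204 (chr1:173747293-173766943), Mndal (chr1:173849126-173942491), Mnda (chr1:173896345-173913046), Ifi203 (chr1:173920407-173942672) and Ifi205 (chr1:174011998-174031810) lie on the minus strand. All are annotated as protein-coding. The Mndal model reaches across the Mnda and Ifi203 loci, but exons of Mndal and Ifi203 share only 37 bases. RefSeq lists Mnda as Ifi211 and Pyhin1 as Ifi209. The copies are alike enough to matter for counting. Of the 100-base stretches in the Mnda transcripts, 56.9% also occur in another gene, 37.2% in Ifi205. The share was 16.9% for Pyhin1, 15% for Ifi205, 10.7% for Ifi204, 6.38% for Mndal and 2.84% for Ifi203, and it was 0 for Aim2. The sources used here do not say how the authors' counting treated such reads, so the values of Mnda, Ifi205, Pyhin1 and Ifi204 are uncertain to that extent.

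The promoter windows are shown because several members are named for their induction by interferon. Windows run from 250 bases before to 50 bases after a RefSeq start site (GRCm38.p6), and 6 of the 7 members have entries. The core of the interferon-stimulated response element (ISRE), GAAA and GAAA parted by 2 bases of any kind, read on either strand, was found in 4 of these 6 members. It occurs in 3.44% of all 32851 such windows. Capitals mark the core, or for Pyhin1 the closest stretch on the gene's strand, which has 1 mismatch to it.
Ifi203 (chr1:173942508-173942537, minus strand): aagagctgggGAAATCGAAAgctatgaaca
Mndal (chr1:173880204-173880233, minus strand): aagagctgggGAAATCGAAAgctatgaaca
Mnda (chr1:173913064-173913093, minus strand): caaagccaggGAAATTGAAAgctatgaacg
Ifi205 (chr1:174031870-174031899, minus strand): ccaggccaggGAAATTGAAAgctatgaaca
Pyhin1 (chr1:173630770-173630799, plus strand): aatctctgagTAAATCGAAAgagatgcact
The core began 35, 36 and 37 bases before the start site of Ifi203, Mndal and Mnda, and 134 bases before that of Ifi205. Ifi203 and Mndal hold the same 30 letters, and their whole windows are 94.3% identical over 299 aligned positions. The windows of Ifi205 and Mnda are 93.5% identical over 201 aligned positions. A further match on the other strand was found in the Ifi205 window, and a second start site of Mndal also has a match, whereas a second start site of Ifi203 has none. In the Aim2 window the closest stretch, sought on the gene's strand only, had 3 mismatches. The STAT dimer element (GAS, TTC and GAA parted by 3 bases of any kind), present in 8.3% of all windows, was in none of the 6 members' windows. A match describes letters, not binding, and no match says only that these letters are not in the window.

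Depth was 6035445 to 8129983 counts per library, and 11062 genes with enough counts were tested. Levels are counts per 1000000 counts (CPM) with TMM scaling, and 3 counts, the smallest number read as detection, equal 0.374 to 0.494 CPM. The 11 CD4 T cell genes used to check the label summed to between 5059.9 and 6863.2 CPM in every library. The libraries also held transcripts of genes listed here as markers of other cells, which does not show that those cells were present. Rag1, a gene of immature T cells, stood at 344 CPM in neonatal PBS library 1 and at 170.0 CPM in juvenile PBS library 2. In the other libraries of those groups it was 13.7 to 76.0 CPM. It was 0.255, 42.8 and 8.49 CPM after neonatal E. coli and 104, 145 and 102 CPM after juvenile E. coli. The 9 immature T cell genes together summed to 2862.2 to 2903.5 CPM after juvenile PBS and to less, 1929.1 to 2639.7 CPM, after juvenile E. coli. Most of these sums was Satb1, at 1970 to 2260 CPM and 1350 to 1980 CPM. Rag2 was at 0.72 and 1.75 CPM in juvenile PBS libraries 1 and 3, Dntt at 6.63 and 3.19, and Arpp21 at 5.33 and 7.17. After juvenile E. coli they stood at 5.08 to 9.05, 16 to 20.3 and 21.5 to 25.7 CPM. All were higher still in juvenile PBS library 2. In bulk samples, fewer cells of a type and less RNA per cell cannot be told apart. The members' calls without neonatal PBS library 1 and without juvenile PBS library 2 are given with the results.

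Members fell into an abundant and a scarce class, which can be compared only per length. Per kilobase (kb) of merged exons, Mndal was highest after neonatal PBS at 144 ± 9.66 CPM per kb (mean ± SD, n = 3 libraries, as for all means). Ifi203 followed at 86.2 ± 5.18 and Pyhin1 at 83.5 ± 7.10 CPM per kb, a difference smaller than their spread. Aim2 stood at 15.4 ± 0.848 CPM per kb. The scarce members were Ifi204 at 1.09 ± 0.424, Mnda at 0.385 ± 0.200 and Ifi205 at 0.109 ± 0.0387 CPM per kb.

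The order by mean was the same in all 4 groups. After juvenile E. coli, Mndal reached 234 ± 40.6, Ifi203 146 ± 19.4, Pyhin1 103 ± 23.6 and Aim2 23.55 ± 3.43 CPM per kb. Ifi204 stood at 12.9 ± 4.87 and Mnda at 6.56 ± 3.85 CPM per kb, so that their libraries overlapped. Ifi205 remained lowest at 0.682 ± 0.255 CPM per kb. Ifi203 and Mndal alone made up most of the family's counts in every library. The sources used here do not name the gene models behind the authors' counts, so the values per kb are approximate.

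**Figure D1:**
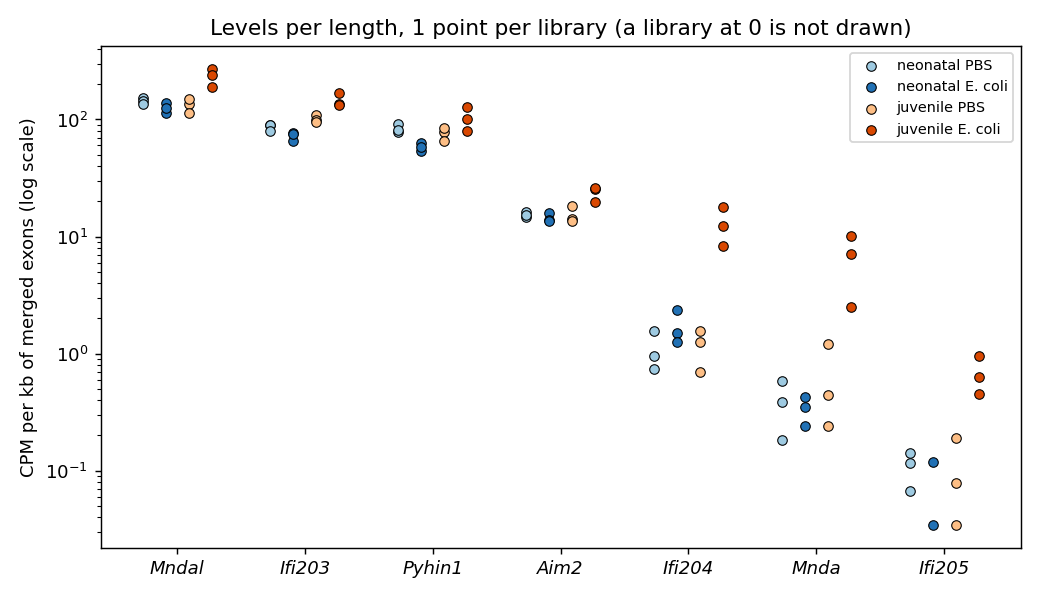
Level per kb of merged exons (CPM per kb, log scale) of each member in each library, 1 point per library, colored by group. Mndal, Ifi203 and Pyhin1 lie highest and Ifi205 lowest, and the juvenile E. coli points of Ifi204 and Mnda lie well above their other groups.

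After E. coli the RNA of all 7 members rose in juveniles, by 0.44 for Pyhin1 up to 3.45 for Ifi204 on the log2 scale. In neonates 0 of the 7 were called by edgeR, 1 by DESeq2 and 1 by limma voom, and 2 had an unadjusted p under 0.05. Among all tested genes 24.8% were called in the juvenile comparison (15.4% higher) and 1.19% in the neonatal one. With 1 library left out, the count called over all tested genes ranged from 1656 to 3204 in juveniles (2747 with all) and from 55 to 238 in neonates (132 with all). Mnda and Ifi205 passed the filter on low counts only through their juvenile E. coli libraries, so a difference was built into their being tested, and the other 5 members passed it in every group. The members' median log2 fold change was 0.82 in juveniles and -0.20 in neonates, beside -0.01 and 0.00 over all tested genes. These medians include Mnda and Ifi205 and are a description. Groups did not overlap for 6 of the 7 members in juveniles, beside 20.6% of all tested genes that were separated upward. Without neonatal PBS library 1, 6 members were called in juveniles, and without juvenile PBS library 2, all 7.

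**Figure D2:**
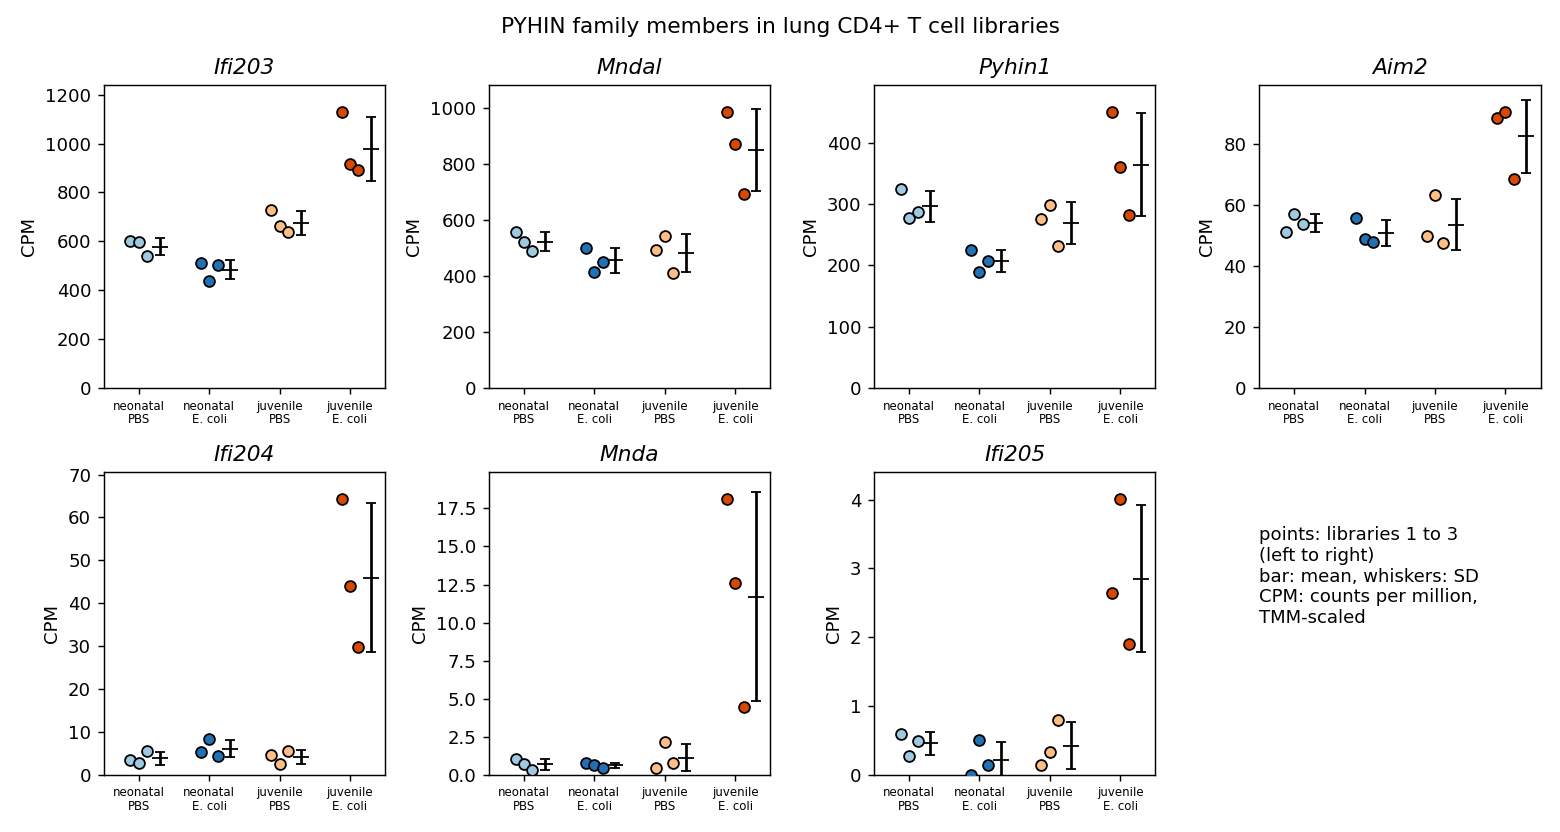
CPM of each member in the 12 libraries, by group, with the mean (bar) and SD (whiskers) beside the 3 points. Juvenile E. coli libraries lie above juvenile PBS for every member except Pyhin1, whose lowest juvenile E. coli library lies within the PBS range.

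Ifi204, which signals through STING, had the highest juvenile fold change of the 5 members that passed the filter in every group. It stood at 4.47, 2.47 and 5.58 CPM in the juvenile PBS libraries and at 64.3, 43.9 and 29.7 CPM after juvenile E. coli. These are 31, 15 and 35 counts against 511, 318 and 234 counts. Every E. coli library was far above every PBS library, and library 1 was highest. The fitted log2 fold change was 3.45 ± 0.34 (SE; 10.9-fold; adjusted p = 5.58e-06, edgeR quasi-likelihood). In neonates Ifi204 was at 3.42, 2.64 and 5.55 CPM after PBS and at 5.36, 8.35 and 4.46 CPM after E. coli. These ranges overlapped, and the log2 difference of 0.67 ± 0.39 did not pass (adjusted p = 0.548).

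Aim2, the inflammasome sensor, was evenly expressed in 3 of the groups. It stood at 51.0, 56.9 and 53.9 CPM after neonatal PBS, and at 55.7, 48.9 and 47.8 CPM after neonatal E. coli. Juvenile PBS libraries held 49.7, 63.3 and 47.7 CPM, and juvenile E. coli libraries 88.4, 90.3 and 68.6 CPM. The juvenile E. coli libraries were above all others, while the 3 remaining groups overlapped. The juvenile log2 fold change was 0.62 ± 0.13 (adjusted p = 0.00292), and the neonatal difference was -0.09 ± 0.13 (adjusted p = 0.876).

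Ifi203 and Mndal, nuclear members of the family that are the most highly counted here, both rose in juveniles. Ifi203 stood at 727, 661 and 636 CPM after juvenile PBS and at 1127, 915 and 890.45 CPM after juvenile E. coli. These groups did not overlap, and Ifi203 rose by 0.53 ± 0.10 on the log2 scale (adjusted p = 0.00104). In neonates Ifi203 was at 599, 597 and 538 CPM after PBS and at 511, 437 and 504 CPM after E. coli. All neonatal E. coli libraries were below all neonatal PBS libraries, but the log2 difference of -0.25 ± 0.10 did not pass (adjusted p = 0.294).

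Mndal, named for its likeness to Mnda, stood at 494, 543 and 411 CPM after juvenile PBS and at 984, 873 and 692 CPM after juvenile E. coli. The groups were apart, and the log2 fold change was 0.82 ± 0.12 (adjusted p = 0.000248). Neonatal PBS libraries held 558, 522 and 488 CPM of Mndal, and neonatal E. coli libraries 501, 414.5 and 451 CPM. These overlapped, and the log2 difference of -0.20 ± 0.12 did not pass (adjusted p = 0.596).

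Pyhin1, the mouse relative of human IFIX, gave the weakest juvenile call. It stood at 276, 299 and 231 CPM after juvenile PBS and at 449, 361 and 282 CPM after juvenile E. coli. Library 3 of the E. coli group lay inside the PBS range. The log2 fold change was 0.44 ± 0.14 (adjusted p = 0.0324). The call was lost when only juvenile libraries were fitted (adjusted p = 0.0975), and with upper-quartile scaling (log2 0.38, adjusted p = 0.0514). It was also lost without any single one of neonatal PBS libraries 1, 2 and 3, juvenile PBS libraries 1 and 3, and juvenile E. coli libraries 1 and 2 (log2 0.23 to 0.46, adjusted p = 0.0503 to 0.241). The lowest of these values came without juvenile E. coli library 1.

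In neonates Pyhin1 pointed the other way. Its PBS libraries held 325, 277 and 287 CPM and its E. coli libraries 226, 189 and 208 CPM, so all E. coli libraries were below all PBS libraries. The log2 difference of -0.51 ± 0.14 did not pass (adjusted p = 0.112). It passed with DESeq2 (-0.52, adjusted p = 0.0388), with limma voom (-0.52, adjusted p = 0.0185) and when only neonatal libraries were fitted (-0.51, adjusted p = 0.00502). It also passed without juvenile E. coli library 1 (adjusted p = 0.0489) or library 3 (adjusted p = 0.0351). Ifi203 and Pyhin1, the 2 members with an unadjusted p under 0.05 in neonates, were also the only members whose neonatal groups separated downward, beside 10.6% of all tested genes.

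Mnda and Ifi205 were scarce outside juvenile E. coli. Both were tested only because their juvenile E. coli libraries are high, so their juvenile p-values are a description. Mnda, the row named for the myeloid nuclear differentiation antigen, had 3, 13 and 5 counts after juvenile PBS and 144, 91 and 35 counts after juvenile E. coli. That is 0.432, 2.14 and 0.797 CPM against 18.1, 12.6 and 4.45 CPM. The groups were apart, library 1 was highest and library 3 lowest, and the log2 fold change was 3.39 ± 0.55 (95% interval 2.22 to 4.56, adjusted p = 0.000402). It was 4.23 without juvenile PBS library 2. Neonatal libraries held 2 to 7 counts of Mnda in either group, and the log2 difference there was -0.18 ± 0.81 (adjusted p = 0.967).

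Ifi205, whose protein is described as a regulator of ASC expression, had 1, 2 and 5 counts after juvenile PBS and 21, 29 and 15 counts after juvenile E. coli. The corresponding levels were 0.144, 0.330 and 0.797 CPM against 2.64, 4.01 and 1.91 CPM. The groups were apart, and the log2 fold change was 2.72 ± 0.66 (95% interval 1.32 to 4.11, adjusted p = 0.00726). As for Mnda, this p-value is a description, because the gene was tested only through its juvenile E. coli libraries. It was 3.53 without juvenile PBS library 3. Neonatal PBS libraries held 4, 2 and 3 counts of Ifi205, and neonatal E. coli libraries 0, 4 and 1 counts. At this depth no neonatal difference in Ifi205 was detectable (log2 -0.99 ± 0.92, adjusted p = 0.771). The value was -2.44 without neonatal E. coli library 2 and -0.42 without library 1.

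The difference between the 2 responses was tested directly. It was larger in juveniles for 6 of the 7 members, with 7.00% of all tested genes called in either direction and 5.05% called larger in juveniles. The count over all tested genes was 774, and 368 to 1553 with 1 library left out. Mnda, 1 of the 6, was tested only because its juvenile E. coli libraries are high. Ifi204 differed by 2.78 ± 0.53 on the log2 scale (adjusted p = 0.00598), Mndal by 1.015 ± 0.18 (adjusted p = 0.00337), Pyhin1 by 0.95 ± 0.20 (adjusted p = 0.0104) and Ifi203 by 0.79 ± 0.14 (adjusted p = 0.00367). These 4 calls held without each library in turn. Aim2 differed by 0.71 ± 0.19 (adjusted p = 0.0313) and Mnda by 3.57 ± 1.03 (adjusted p = 0.048). Both of these calls were lost without any 1 of 10 libraries, that is all but juvenile PBS library 2 and juvenile E. coli library 3. Across those 10 fits Aim2 stood at 0.62 to 0.75 (adjusted p = 0.0545 to 0.108) and Mnda at 3.07 to 3.84 (adjusted p = 0.0648 to 0.192). Mnda differed by 4.41 without juvenile PBS library 2. Ifi205 differed by 3.70 ± 1.16, which did not pass (adjusted p = 0.068), but did with DESeq2 (3.82, adjusted p = 0.0469), with limma voom (4.74, adjusted p = 0.00757) and without neonatal E. coli library 2 (5.13, adjusted p = 0.0483). It was 4.51 without juvenile PBS library 3 and 3.11 without neonatal E. coli library 1. The difference was called for 4 members without neonatal PBS library 1 and for 6 without juvenile PBS library 2.

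**Figure D3:**
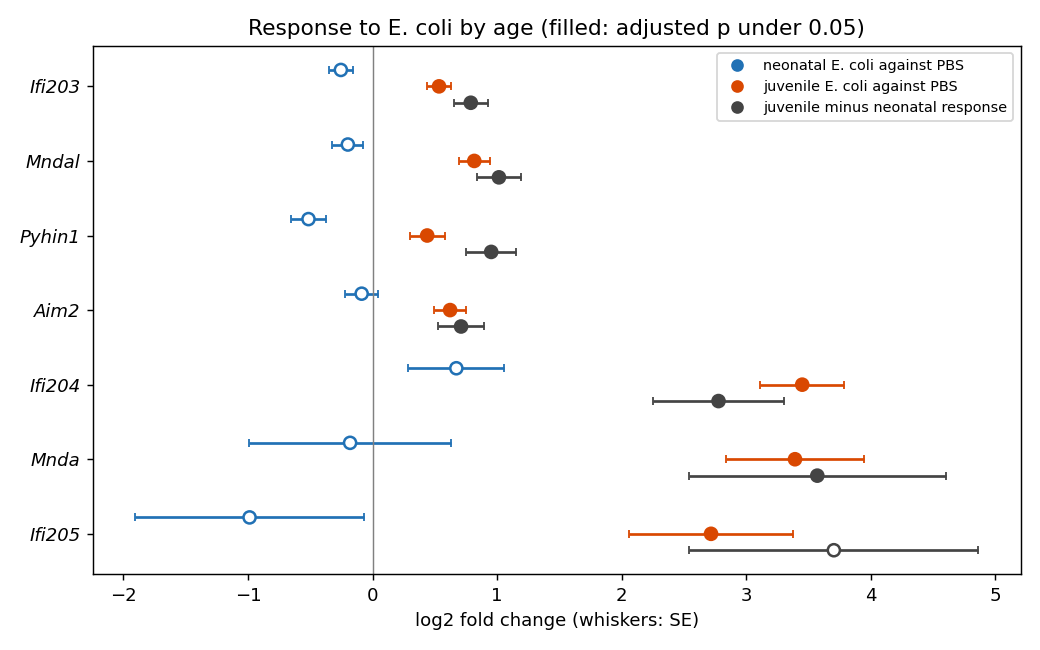
Log2 fold change (± SE) of each member after E. coli in neonates and in juveniles, and the difference of these responses, with filled points where the adjusted p was under 0.05. Juvenile points are all filled and above 0, neonatal points are all open, and the difference is filled for every member except Ifi205. Mnda and Ifi205 were tested only because their juvenile E. coli libraries are high.

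The ages were also compared within a treatment. After E. coli the 5 members that passed the filter on low counts in every group were all lower in neonates than in juveniles, with 11.3% of all tested genes called lower and 17.8% called in either direction. Their groups did not overlap, beside 20.5% of all tested genes separated downward. Ifi204 was lower by 2.91 ± 0.32 on the log2 scale (adjusted p = 1.36e-05), Ifi203 by 1.01 ± 0.10 (adjusted p = 5.46e-06), Mndal by 0.90 ± 0.12 (adjusted p = 0.000116), Pyhin1 by 0.81 ± 0.14 (adjusted p = 0.000854) and Aim2 by 0.70 ± 0.13 (adjusted p = 0.0015). Mnda was lower by 4.22 ± 0.58 (adjusted p = 0.000111) and Ifi205 by 3.60 ± 0.70 (adjusted p = 0.0022), but both were tested only because their juvenile E. coli libraries are high. Ifi205 was lower by 5.05 without neonatal E. coli library 2. The calls of the 5 members held without each library in turn, while the count over all tested genes ranged from 1108 to 2637. This comparison uses the same E. coli libraries as the responses above and is not independent of them.

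After PBS, 4.08% of all tested genes were called between the ages (451, and 177 to 671 with 1 library left out). Of the 7 members, 0 were called by edgeR, DESeq2 or limma voom, which is near that share, and 1 had an unadjusted p under 0.05. That member was Ifi203, with neonatal libraries at 538 to 599 CPM below juvenile libraries at 636 to 727 CPM, beside 10.2% of all tested genes separated downward. Its log2 difference was -0.22 ± 0.10 (adjusted p = 0.235). Aim2 (0.01) and Ifi204 (-0.13) had log2 differences smaller than their errors. The 95% intervals of the scarce members were wide, so likeness between the ages is not shown for them. They were -1.02 to 0.753 for Ifi204, -2.26 to 0.968 for Mnda and -1.70 to 1.91 for Ifi205.

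Other genes of the same chromosomal cluster mostly rose with the members, with 1 exception. Of 6 further PYHIN rows, 5 were tested, and in juveniles 4 were called higher and 1 lower. Over all tested genes 15.4% were called higher. AI607873, listed in RefSeq as Ifi207, rose from 15.3 ± 3.84 to 56.3 ± 9.53 CPM (log2 1.87 ± 0.29, adjusted p = 0.000267). Pydc4 (Ifi213) rose by 0.55 ± 0.12 and Gm4955 (Ifi206) by 0.40 ± 0.09 on the log2 scale (adjusted p = 0.0038 and 0.00604). BC094916, whose position was not looked up here, rose by 0.88 ± 0.23 (adjusted p = 0.0124). Pydc3 (Ifi208) fell from 150.1 ± 27.3 to 95.1 ± 9.48 CPM, a log2 change of -0.66 ± 0.12 (adjusted p = 0.00138). In neonates 0 of the 5 were called by edgeR, DESeq2 or limma voom, and 2 had an unadjusted p under 0.05. The sixth row, Ifi202b, had at most 1 count in any library.

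Pydc3 and Pydc4 hold the same letters around the ISRE core of their promoter windows, and AI607873 holds the core as well. The core is present in 4 of the 5 of these genes that were searched, and BC094916 was not searched.
Pydc3 (chr1:173673597-173673626, plus strand): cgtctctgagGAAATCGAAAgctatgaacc
Pydc4 (chr1:173599326-173599355, minus strand): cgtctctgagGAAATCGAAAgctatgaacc
AI607873 (chr1:173741831-173741860, minus strand): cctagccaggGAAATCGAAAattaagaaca
The windows of Pydc3 and Pydc4 shown are identical over their 30 bases. Whether the core has a part in any change was not tested. Stretches shared among these further genes were not counted, so their values carry that uncertainty.

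Genes on either side of the sensors in their pathways were taken from lists of known components. For the interferons themselves, 8 rows were found. Only Ifng, the type II interferon made by T cells, was tested. It rose by 3.08 ± 0.28 on the log2 scale in juveniles (adjusted p = 3.04e-06), and its neonatal difference was 0.48 ± 0.33 (adjusted p = 0.642). Ifnb1, Ifna1, Ifna2, Ifna4, Ifna5 and Il28b had 0 counts in every library, which allows up to 3 counts, or 0.374 to 0.494 CPM. Il28a had at most 2 counts in a library.

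In interferon receptor signalling, 9 of 17 genes were called higher in juveniles and 1 lower, beside 15.4% of all tested genes called higher. Stat2, which carries the type I interferon signal to the ISRE, rose by 1.54 ± 0.14 on the log2 scale (adjusted p = 3.45e-06). The interferon regulatory factor Irf8 rose by 1.63 ± 0.19 and the kinase Jak2 by 0.72 ± 0.09 (adjusted p = 2.04e-05 and 4.08e-05). Ifnar1, a receptor chain for type I interferon, had a difference of -0.05 ± 0.08 (adjusted p = 0.688). Chosen after their values were seen, Ifnar2 rose by 0.41 ± 0.08 and Ifngr1 by 0.50 ± 0.11 (adjusted p = 0.00135 and 0.0051). Ifngr2 had a difference of -0.145 ± 0.17 (adjusted p = 0.58). In neonates 1 of the 17 rose, Irf1, by 0.99 ± 0.20 (adjusted p = 0.0262), beside 1.19% of all tested genes called.

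Of 28 other DNA sensors and STING pathway genes, 9 were called higher in juveniles and 1 lower. Over all tested genes 15.4% were called higher and 24.8% in either direction. Zbp1, a sensor of Z-form nucleic acids, rose by 1.56 ± 0.14 (log2, adjusted p = 3.46e-06). Samhd1, which degrades deoxynucleotides, rose by 0.72 ± 0.08, and Trim30a by 0.90 ± 0.14 (adjusted p = 1.43e-05 and 0.00021). Tlr9, the endosomal receptor for unmethylated DNA, rose by 1.58 ± 0.25 (adjusted p = 0.00029). The DNA sensor cGAS was not analysed here. STING itself, Tmem173, stood at 96.5 ± 4.01 CPM after juvenile PBS and 115.5 ± 18.2 CPM after juvenile E. coli, which did not pass (log2 0.26 ± 0.10, adjusted p = 0.0822). Neither did its kinase Tbk1 (0.10 ± 0.11, adjusted p = 0.529) or the factor Irf3 (-0.22 ± 0.14, adjusted p = 0.263). Ikbke, the gene called lower, fell by 0.60 ± 0.11 (adjusted p = 0.00109). Irf7 rose by 0.56 ± 0.165 (adjusted p = 0.0222), and both were chosen after their values were seen. In neonates 1 of the 28 rose, Unc93b1, which carries endosomal Toll-like receptors, by 1.06 ± 0.24 (adjusted p = 0.0452). Of all tested genes, 1.19% were called in neonates.

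Of 17 tested inflammasome genes, 11 were called higher in juveniles and 2 lower, beside 15.4% of all tested genes called higher. Il1a and Il1b, genes of the interleukin-1 cytokines, rose by 4.63 ± 0.49 and 3.21 ± 0.40 on the log2 scale (adjusted p = 1.15e-05 and 4.08e-05). Casp4, which encodes the caspase that binds bacterial lipopolysaccharide, rose by 2.27 ± 0.28 (adjusted p = 4.04e-05). Txnip, a thioredoxin-binding protein, fell by 1.28 ± 0.11 (adjusted p = 2.13e-06). Casp1, chosen after its value was seen as the protease Aim2 acts through, rose by 1.88 ± 0.30 (adjusted p = 0.000402). Pycard, the ASC adaptor, stood at 56.7 ± 10.7 CPM after juvenile PBS and 44.7 ± 5.25 CPM after juvenile E. coli, which did not pass (log2 -0.34 ± 0.13, adjusted p = 0.075). In neonates 2 of the 17 rose, Il1a by 2.90 ± 0.45 and Il1b by 2.14 ± 0.39 (adjusted p = 0.0049 and 0.0106). Of all tested genes, 1.19% were called in neonates.

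**Figure D4:**
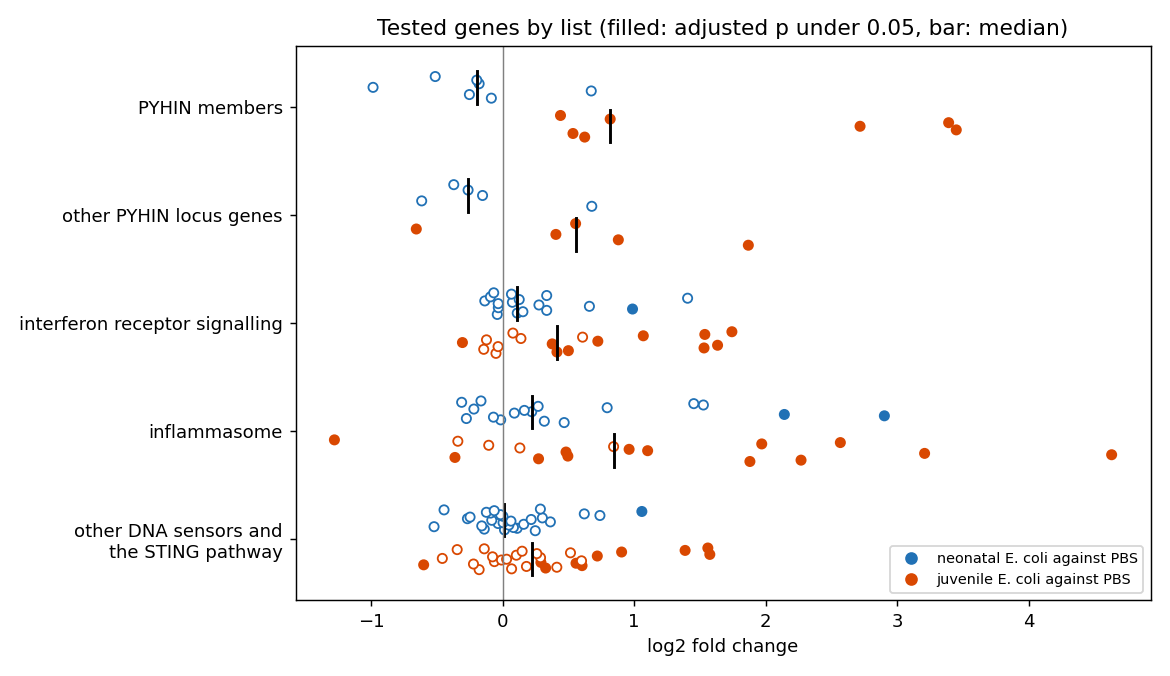
Log2 fold change after E. coli of every tested gene in 5 lists, in neonates and in juveniles, with filled points where the adjusted p was under 0.05 and a bar at each list's median. The juvenile medians of the members and of the inflammasome genes lie at 0.82 and 0.84, and most neonatal points are open.

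Transcripts of genes listed for several other cell types also differed between the groups. Whether they came from those cells or from the CD4 T cells was not tested. Beside the counts given below, 15.4% of all tested genes were called higher in juveniles and 24.8% in either direction. In neonates 1.19% were called. The 18 monocyte and macrophage genes summed to 369.98 to 567.85 CPM after juvenile PBS and to 923.89, 1282.3 and 994.78 CPM in juvenile E. coli libraries 1, 2 and 3. Of the 17 tested, 10 rose and 2 fell in juveniles, and none of the 18 was at 0 in all libraries. Ccr2 was the largest part of the sum in each juvenile E. coli library. It stood there at 413, 433 and 366 CPM, against 61.5 to 133 CPM in all other libraries. Neonatal sums were 285.85 to 474.54 CPM after PBS and 380.0 to 638.89 CPM after E. coli. The 13 dendritic cell and MHC class II genes summed to 142.78 to 210.71 CPM after neonatal PBS, 200.11 to 223.63 CPM after neonatal E. coli, 289.07 to 405.39 CPM after juvenile PBS and 634.13 to 799.92 CPM after juvenile E. coli, and 8 of the 12 tested rose in juveniles.

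The 9 natural killer and innate lymphoid genes summed to 14.7 to 19.3, 27.4 to 30.8, 16.3 to 21.7 and 48.9 to 63.3 CPM, neonates first and PBS before E. coli at each age, and 4 of the 6 tested rose in juveniles. Klra8 was at 0 throughout. The 13 neutrophil genes summed to 0.972 to 3.42, 10.3 to 57.5, 0.330 to 4.03 and 9.91 to 22.9 CPM in the same order, 3 of the 4 tested rose at each age, and Elane was at 0 in every library. The 9 B cell genes summed to 34.4 to 48.2, 51.3 to 74.2, 55.4 to 74.2 and 68.4 to 92.7 CPM, and 1 of the 9 rose in juveniles. Of the 11 CD4 T cell genes, 5 fell in juveniles and none rose.

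The 10 lung epithelial genes summed to 46.9 to 84.6, 63.4 to 175, 35.8 to 42.1 and 91.2 to 206 CPM in that order, and 2 of the 6 tested rose in juveniles. The 7 endothelial genes summed to 273 to 311, 249 to 293, 227 to 244 and 225 to 246 CPM, and of the 6 tested 4 rose and 1 fell in juveniles. Most of each sum was Pecam1, at 220 to 237 CPM after juvenile PBS and 181 to 193 CPM after juvenile E. coli. Kdr stood at 1.59 to 1.98 and 10.4 to 29.8 CPM in these 2 groups, and Cdh5 at 3.13 to 6.34 and 14.2 to 22.5 CPM. The 2 CD8 T cell genes summed to 35.9 to 132.5, 24.5 to 34.8, 23.5 to 89.98 and 66.97 to 91.7 CPM, and neither was called. The 9 immature T cell genes summed to 3011.2 to 3535.6 and 2986.5 to 3783.6 CPM in the neonatal groups, and in juveniles 1 rose and 3 fell.

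Within juvenile E. coli, Ifi204 and Mnda were highest in library 1 and Ifi205 in library 2. The monocyte and macrophage sum and the dendritic cell sum (706.72, 799.92 and 634.13 CPM in libraries 1, 2 and 3) were highest in library 2. The neutrophil (22.9, 19.6 and 9.91 CPM), natural killer (63.3, 48.9 and 56.2 CPM), B cell (92.7, 68.4 and 73.7 CPM) and CD8 T cell (91.7, 76.8 and 66.97 CPM) sums were highest in library 1. So was Ly6c2, 1 of the 18 monocyte and macrophage genes, chosen after its values were seen, at 82.7, 56.2 and 56.0 CPM. Most genes of that list were instead highest in library 2. Examples are Lyz2 (95.6, 222 and 187 CPM), Csf1r (46.3, 101 and 67.1 CPM) and Ccr2 (413, 433 and 366 CPM). Neonatal E. coli library 2 had a monocyte and macrophage sum of 638.89 CPM, above every juvenile PBS library, with 8.35 CPM of Ifi204, 0.623 CPM of Mnda and 0.499 CPM of Ifi205. Both that sum and its Ifi204 were the highest outside juvenile E. coli, while its Mnda and Ifi205 were not. The largest parts of that sum were Mrc1 (178 CPM) and Lyz2 (117 CPM), with Ccr2 at 87.3 CPM, so its make-up differed from that of the juvenile E. coli sums. The part of these other cells in the members' changes was not tested.

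**Figure D5:**
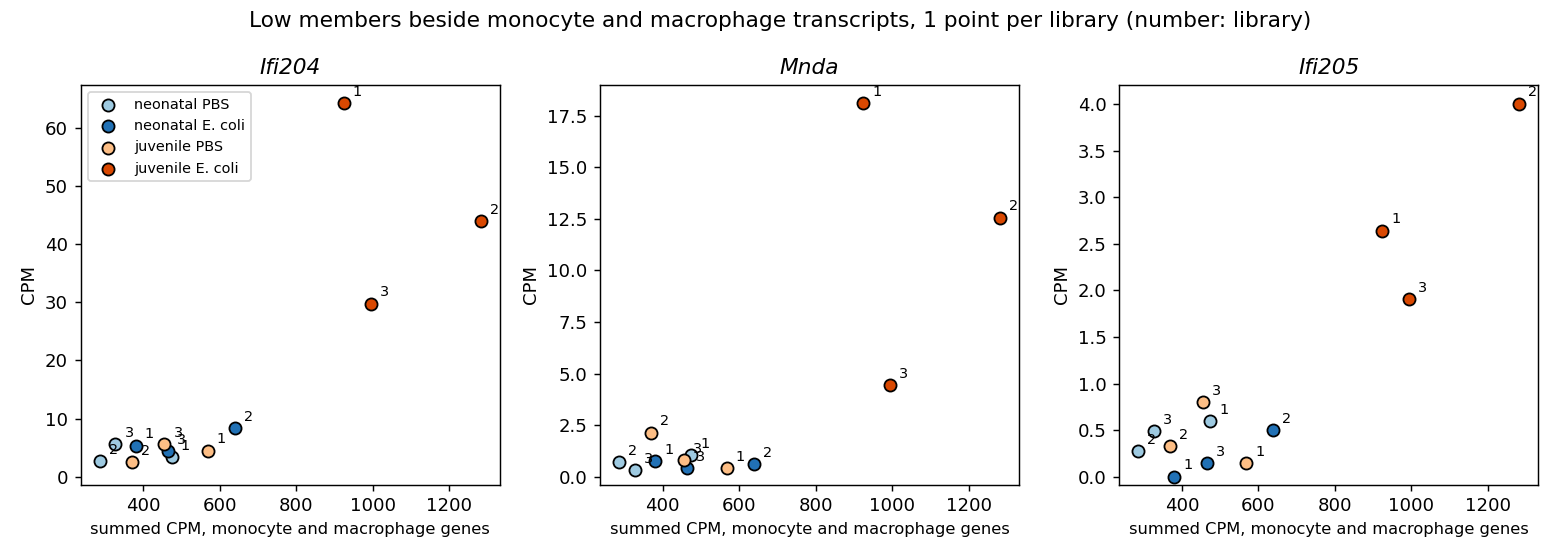
CPM of Ifi204, Mnda and Ifi205 (y axis) against the summed CPM of 18 monocyte and macrophage genes (x axis), 1 numbered point per library, colored by group. The 3 juvenile E. coli libraries lie apart on both axes, and neonatal E. coli library 2, at 638.89 CPM on the x axis, lies below them on the y axis. Its Ifi204, at 8.35 CPM, was the highest outside juvenile E. coli, while its Mnda and Ifi205 were not. The largest part of the x value in each juvenile E. coli library is Ccr2, at 366 to 433 CPM against 61.5 to 133 CPM in all other libraries. Whether these transcripts came from monocytes and macrophages or from the CD4 T cells was not tested.

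The genes whose pattern was most like each member were named by the smallest root-mean-square distance between centred log2 CPM over the 12 libraries, among 8125 genes. For Aim2 they were M6pr (0.0923), Tmed5 (0.122) and Usp25 (0.124), against a median distance of 0.374. For Mndal they were Gbp9, a guanylate-binding protein gene (0.103), Rab8b (0.133) and Hsp90b1 (0.134), against a median of 0.436. For Ifi203 they were Pqlc3 (0.103), Ppp1r3f (0.114) and Gm4955 (0.121), the last from the same cluster, against a median of 0.441. For Pyhin1 they were Zfp935 (0.124), Aida (0.139) and Asah2 (0.145), against a median of 0.392.

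For the scarce members, whose levels varied more, distances were larger throughout. Ifi204 was most like Ly6a (0.367), Cysltr2 (0.43) and the antiviral gene Mx1 (0.434), against a median of 1.5. Mnda was most like Iigp1 (0.57), AW112010 (0.603) and the antiviral gene Rsad2 (0.608), against a median of 1.61, and Ifi205 was most like Angptl2 (0.418), Hip1 (0.501) and Glrx (0.514), against a median of 1.17. Among members, Mndal and Aim2 lay 0.126 apart and Ifi204 and Ifi205 lay 0.769 apart. The points share libraries and depth, and the distances carry no test.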

How the data were processed

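RNA was measured in 12 libraries of 4 groups of 3. The deposited values are raw counts per gene symbol; per the submitters' processing notes, base calling used CASAVA 1.8.4 and alignment used STAR on GRCm38 (mm10). The sources used here name no counting settings or gene models, and the cDNA kit, per the labels, is one that does not mark strand. The series' design text calls each library a pool of mice, and p-values measure the spread between pools. No pair of libraries within a group was a duplicate by a chi-square test of counts (3.88 to 19.6 per degree of freedom).

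Genes were filtered with filterByExpr (minimum count 10, minimum total 15), which kept 11062 genes and 99.9% of counts. edgeR 4.0.16 (R 4.3.3) quasi-likelihood tests used group means of all 12 libraries, TMM scaling, no covariate and Benjamini-Hochberg adjustment over all tested genes and a threshold of 0.05, for 5 contrasts. All adjusted p-values are edgeR's unless another tool is named. The common biological coefficient of variation was 0.123. The script was tested on simulated counts. CPM are the counts over the tested genes' total with TMM factors. The floor of 3 counts covers counting error only.

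Members and gene lists were chosen with earlier results of these data known. All members are named, with up to 4 genes of smallest juvenile p and 2 of smallest neonatal p per list, any list gene described as not passing, and the 3 nearest genes per member. Genes said to be chosen after their values were seen fall outside this rule. Alternatives were DESeq2 1.42.0, limma voom (3.58.1) with sample weights, scaling by RLE or upper quartile, no filter or a stricter one, fits of only the compared groups, leaving out 1 library, and a replicate block. Replicate numbers gave no sign of pairing. Promoter windows are from RefSeq. A gene that the naming rule selects is not reported here, and the DNA methylation data were not analysed here. Figures used matplotlib 3.10.9.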

Additional observations from a re-analysis of the deposited data

Results flagged for a closer look

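The response to E. coli differed between juveniles and neonates, by the test of the difference itself, for 6 members. The juvenile minus neonatal difference of log2 fold changes was 2.78 for Ifi204, 1.015 for Mndal, 0.95 for Pyhin1, 0.79 for Ifi203 and 0.71 for Aim2. It was 3.57 for Mnda, which passed the filter on low counts only through its juvenile E. coli libraries and had at most 13 counts in any other library. The calls for Aim2 and Mnda were lost without any 1 of 10 libraries, while their values in those fits were 0.62 to 0.75 and 3.07 to 3.84.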

How the results depend on the processing

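All 35 member values (7 members in 5 comparisons) kept their direction and side of the threshold with RLE scaling and with a filter that asked all libraries of a group for 10 counts. The count of members called in neonates moved from 0 to 1 with DESeq2, with limma voom and with only the groups compared, and ranged from 0 to 1 over the 12 fits that left out a library. Over those fits the count was 6 to 7 in juveniles, 4 to 6 for the difference of responses, 7 for the ages after E. coli and 0 for the ages after PBS. Directions that turned were of values never called, and the cause was not tested. For neonatal against juvenile PBS, Aim2 (0.01) became -0.006 with upper-quartile scaling and -0.017 without a filter, and ranged from -0.065 to 0.149 over left-out libraries. Mnda became 0.124 with limma voom and ranged from -1.075 to 0.193. Ifi204 ranged from -0.495 to 0.118 and Ifi205 from -0.319 to 0.909. Mnda in neonates ranged from -0.478 to 0.229, positive only without neonatal PBS library 1. Among all tested genes, limma voom called 4480 in juveniles against 2747, 2300 for the difference against 774, 312 in neonates against 132, 927 for the ages after PBS against 451 and 3810 for the ages after E. coli against 1964. DESeq2 called 235 in neonates and 702 for the ages after PBS, and fits of only the groups compared called 320 and 280. Upper-quartile scaling moved the share of juvenile calls that were higher from 62.1% to 50.9%, and the median of all genes by -0.057. Depth limits Ifi205 and Mnda, at 0 to 5 and 2 to 13 counts per library outside juvenile E. coli. Over left-out libraries the count over all genes was 1656 to 3204 in juveniles, 55 to 238 in neonates, 368 to 1553 for the difference, 177 to 671 for the ages after PBS and 1108 to 2637 for the ages after E. coli. It moved by over 1.5 times in juveniles without juvenile E. coli library 1 (1799) or 2 (1656), in neonates without neonatal PBS library 1 (56) or 2 (55), neonatal E. coli library 2 (62) or juvenile PBS library 2 (238), and for the ages after PBS without neonatal PBS library 1 (177) or 2 (299) or juvenile PBS library 1 (243). It did so for the ages after E. coli without neonatal E. coli library 1 (1111) or 2 (1300) or juvenile E. coli library 1 (1139) or 2 (1108), and for the difference without 9 of the 12 libraries, the exceptions being neonatal PBS library 2 (609), neonatal E. coli library 3 (758) and juvenile PBS library 3 (644).

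With a replicate block the counts of members called were 0 in neonates, 7 in juveniles, 6 for the difference, 0 for the ages after PBS and 7 for the ages after E. coli, and no member's call changed. The numbers gave no sign of pairing, which 3 libraries per group cannot exclude. Same-numbered libraries correlated at -0.176 to 0.223 over 18 pairs, with 2 above 0.1. Libraries of unlike number correlated at -0.247 to 0.217 over 36 pairs, with 8 above 0.1.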

Other observations

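The ratio of Mndal to Ifi203 counts was examined after the values were seen. It was 0.932, 0.875 and 0.908 in neonatal PBS libraries and 0.679, 0.822 and 0.646 in juvenile PBS libraries. These groups did not overlap, and an exact two-sided permutation test gave p = 0.1, the smallest that 3 libraries against 3 allow. After E. coli the ratio was 0.98, 0.948 and 0.895 in neonates and 0.873, 0.955 and 0.777 in juveniles, and these overlapped (exact permutation p = 0.3). Within juveniles the exact permutation p of E. coli against PBS was 0.2, and within neonates 0.3. None of the 4 comparisons could pass a threshold of 0.05 at this number of libraries.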
